A study of Mus musculus with 4 samples.

Results

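Semaphorins and their plexin receptors, and ephrins and their Eph receptors, are guidance systems that cells use to repel, attract and sort one another. The 51 protein-coding genes described here were chosen by symbol from the RefSeq annotation of mm10, out of 21887 protein-coding genes. They comprise 20 semaphorin, 8 ephrin, 9 plexin and 14 Eph receptor genes, that is 28 ligand and 23 receptor genes. For each gene, peaks of the transcriptional repressors Slug and Snail, the products of Snai2 and Snai1, were counted in the gene and within 10 kb of either end.

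Both factors had been mapped by chromatin immunoprecipitation and sequencing (ChIP-seq) in mouse breast cancer cell lines derived from the MMTV-PyMT model, in which a viral promoter active in mammary epithelium drives the polyoma middle T oncogene. The Slug library came from pBl.1G, labelled as an epithelial line that expresses Slug highly, and used a rabbit monoclonal antibody to Slug. The Snail library came from pBl.3G, labelled as a mesenchymal line that expresses Snail highly, and used an antibody labelled as recognising both Snail and Slug. Neither line was treated. Each factor had 1 library, so factor, antibody and cell line cannot be told apart, no value has a replicate error, and no difference between the libraries was tested. The input DNA of each line was not used here. Peak lists carry no expression, so the labelled cell types could not be compared with marker genes.

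Semaphorins are secreted, membrane-spanning or lipid-anchored proteins whose shared sema domain binds plexins. Plexins act through small GTPases on the cytoskeleton and on integrin adhesion. Ephrins stay on the cell surface, the A type through a lipid anchor and the B type through a membrane-spanning segment. Eph receptors are receptor tyrosine kinases that bind them on touching cells, and signals run into both cells. In mammary tissue these systems are known for roles in duct branching and in keeping luminal and basal cells apart. Snail and Slug are zinc finger repressors that recognise the E-box CAGGTG.

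The Slug list held 41612 peaks with a median width of 206 bp, and the Snail list 28375 peaks with a median width of 722 bp. Every peak has a score from the authors' peak caller, at least 50 in both lists. Slug peaks had a median score of 81.1, and Snail peaks one of 151. The scores depend on each library's depth, which is unknown, so scores of the 2 lists are not comparable, and ranks are given within each list.

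Most of these genes had peaks in both libraries. A Slug peak was found at 38 genes (74.5%, Wilson 95% interval 61.1 to 84.5), and a Snail peak at 47 genes (92.2%, 81.5 to 96.9). The intervals cover counting error only. Over all protein-coding genes the shares were 56.2% for Slug and 66.7% for Snail. Slug and Snail both had peaks at 36 of the 51 genes, against 44.6% of all protein-coding genes. Slug peaks alone were found at Sema5b and Ephb1, the only 2 such genes, against a background of 11.6%. Snail peaks alone were found at 11 genes, against 22.1% of all genes. These were Sema3b, Sema3f, Sema6b, Sema7a, Efnb3, Plxna3, Plxnb1, Plxnb2, Plxnb3, Plxnd1 and Epha8. Sema4a and Epha10 had no peak of either factor, against 21.7% of all genes.

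Long genes offer more room for a peak. When the rates of all protein-coding genes in 4 classes of gene length were applied to the lengths of the 51 genes, the shares came to 67.6% for Slug and 69.9% for Snail. The classes did not lean one way for Slug. Among genes under 20 kb, 12 of 17 members (70.6%) had a Slug peak, against 40.8% of all genes, and at 20 to 50 kb 6 of 14 (42.9%) did, against 62.5%. For Snail the shares were 17 of 17 members under 20 kb, against 57.3% of all genes, and 12 of 14 (85.7%) at 20 to 50 kb, against 76.4%. Among the 20 longer members, 20 had Slug peaks and 18 had Snail peaks. At 50 to 150 kb these were 4 of 4 members for Slug, against 81.9% of all genes, and 3 of 4 for Snail, against 80.9%. Over 150 kb they were 16 of 16 for Slug, against 96.9%, and 15 of 16 (93.8%) for Snail, against 74.9%. Peak density over the 51 genes together, not matched for gene length, was near that of protein-coding genes at large. In the 7.78 Mb of windows there were 132 Slug peaks, or 1.70 per 100 kb, against 1.90 in the windows of all protein-coding genes. Snail also had 132 peaks there, or 1.70 per 100 kb, against 1.73. The members' Snail peaks had a median score of 129.7, against 201 for all Snail peaks in gene windows, and their Slug peaks one of 73.7, against 83.7.

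**Figure D1:**
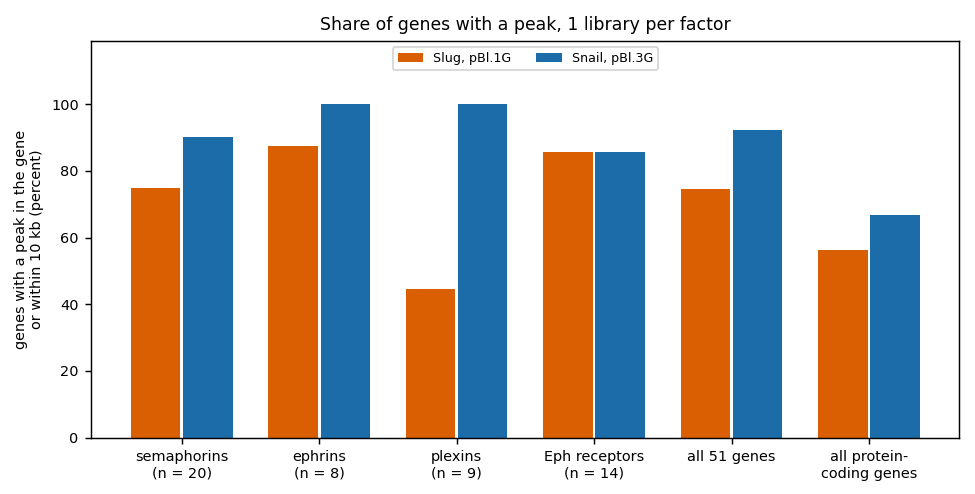
Share of genes (percent) with a Slug peak in pBl.1G (orange) or a Snail peak in pBl.3G (blue) in the gene or within 10 kb, for each family, the 51 genes together and all protein-coding genes. Bars are counts from 1 library each, without error bars, and are not matched for gene length, which differs between families. Plexins show the widest gap, 44.4% for Slug and 100% for Snail, and Eph receptors none, 85.7% for both.

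Ligands and receptors had similar shares. Of the 28 ligand genes 22 (78.6%) had a Slug peak, against 16 of the 23 receptor genes (69.6%). Snail peaks were found at 26 ligand genes (92.9%) and 21 receptor genes (91.3%). Median gene length was 26.6 kb for ligands and 40.5 kb for receptors. The families within each role differed more. Among ligands, 15 of 20 semaphorin genes and 7 of 8 ephrin genes had a Slug peak. Among receptors, 4 of 9 plexin genes and 12 of 14 Eph genes did. Snail peaks were found at 18 semaphorin, 8 ephrin, 9 plexin and 12 Eph genes.

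Which library had more peaks at a gene followed the length of the gene. Among the 20 genes over 50 kb, 16 had more Slug than Snail peaks, and Plxna2 alone had the reverse. Among the 31 shorter genes, Sema4f alone had more Slug than Snail peaks, and 23 had the reverse. Together the long genes held 104 Slug and 61 Snail peaks, the short genes 28 Slug and 71 Snail peaks. All protein-coding genes leaned the same way. Of those over 50 kb, 52.1% had more Slug and 28.8% more Snail peaks, and of the shorter ones 17.5% had more Slug and 42.9% more Snail peaks. The 50 kb limit was chosen after the values were seen.

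**Figure D2:**
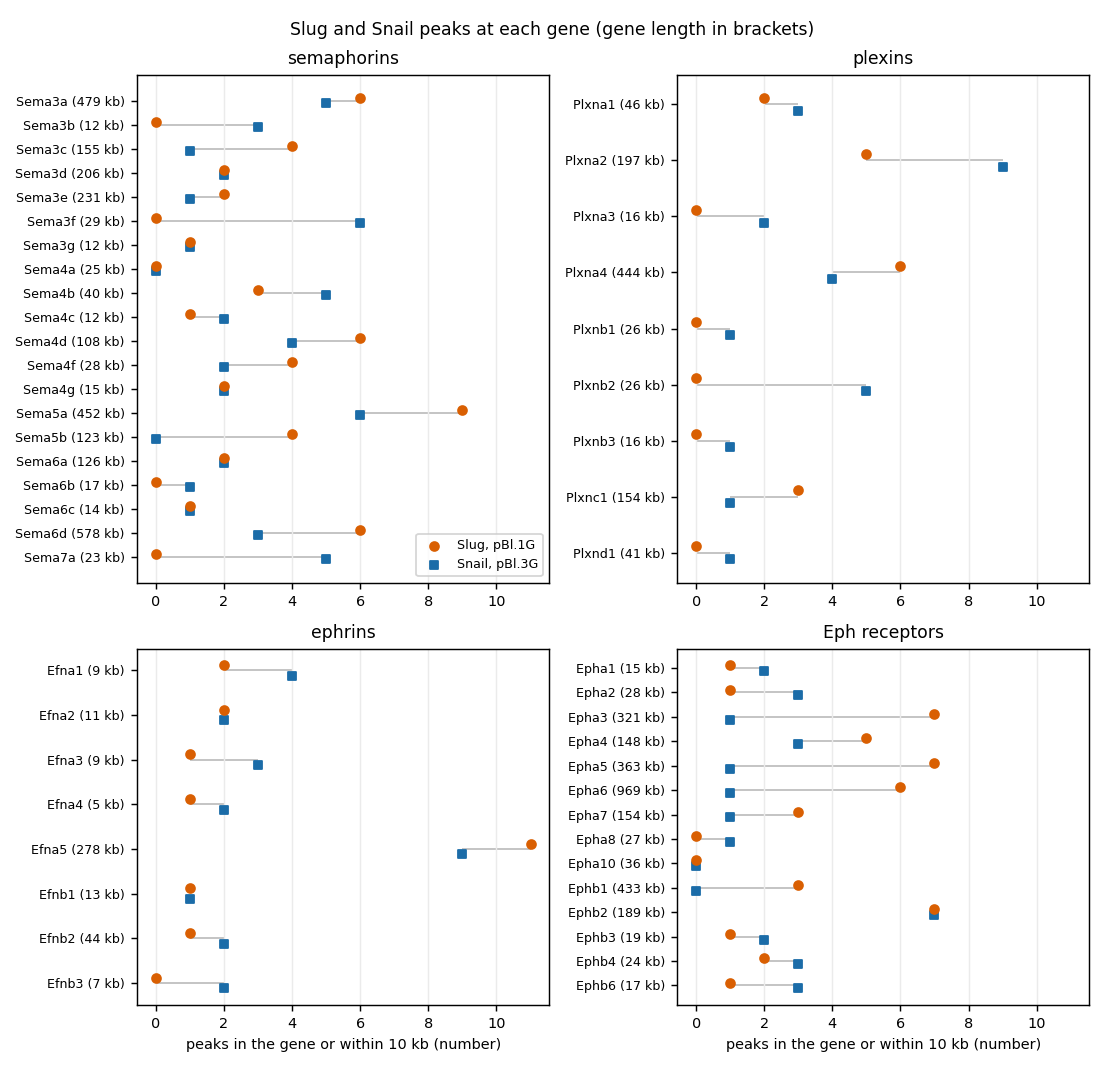
Number of Slug peaks (orange circles, pBl.1G) and Snail peaks (blue squares, pBl.3G) in each of the 51 genes or within 10 kb, with gene length in brackets and a grey line joining both values. Long genes such as Epha3, Epha5 and Epha6 have the orange circle to the right, and short genes such as Sema3f, Sema7a and Plxnb2 the blue square.

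The 2 libraries also differed in where their peaks lay within these genes. Annotated start sites were matched for 45 of the 51 genes, and 11 of them have several. Sema3b, Sema3f, Sema6a, Efnb3, Plxna1 and Plxna4 were not matched. The upstream end of a gene's span can also lack a matched start, as at Sema4d. Peaks inside the gene near such an end were counted as inside, not as near a start. Of the 122 Slug peaks at the 45 genes, 6 (4.92%) had their midpoint within 1 kb of a start and 102 (83.6%) lay elsewhere inside the gene. Of the 112 Snail peaks, 31 (27.7%) lay within 1 kb of a start and 52 (46.4%) elsewhere inside. The median distance from the nearest start was 65.3 kb for Slug and 11.7 kb for Snail peaks. Over all protein-coding genes with a matched start, 8.499% of Slug and 39.1% of Snail peaks lay within 1 kb of it, and 61.6% of Slug and 25.3% of Snail peaks elsewhere inside. These shares were not matched for gene length, and 16 of the 51 genes were over 150 kb, against 1461 of 21887 protein-coding genes. Whether length accounts for the differences was not tested. The median distances have no value for all protein-coding genes beside them.

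**Figure D3:**
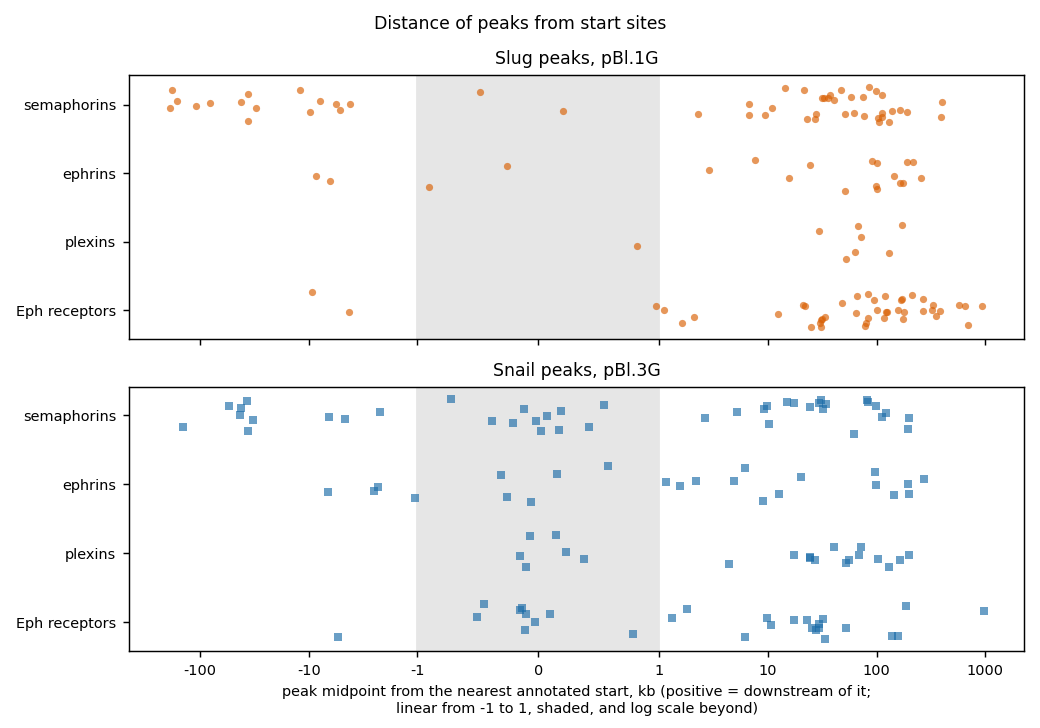
Distance of each peak midpoint from the nearest annotated start (kb, positive downstream; linear within 1 kb, shaded, and logarithmic beyond) for Slug peaks in pBl.1G (above) and Snail peaks in pBl.3G (below) at the 45 genes with a matched start. Vertical scatter within a family only separates the points. The shaded zone holds 6 Slug and 31 Snail points.

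At the start sites themselves the Snail list was the one with peaks. The promoter window of RefSeq, 250 bases before to 50 after a start, was overlapped by a Slug peak at 1 of the 45 genes, Efna3, against 4.54% of protein-coding genes with such a window. A Snail peak overlapped it at 27 genes (60.0%), against 51.1%. By family these were 8 of 17 semaphorin, 6 of 7 ephrin, 5 of 7 plexin and 8 of 14 Eph genes. Of the 27 genes, 21 also had a Slug peak in the gene or within 10 kb, as did 35 of all 45 genes. The same share over all protein-coding genes with a Snail peak over the window was not computed. At 5 of the 21 a Slug peak had its midpoint within 1 kb of a start, Sema6c, Efna3, Efna4, Plxna2 and Ephb6. The 6 of the 27 without a Slug peak were Sema6b, Sema7a, Plxna3, Plxnb1, Plxnb2 and Plxnd1.

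The E-box CAGGTG was searched on both strands, that is as CAGGTG or CACCTG, in these windows. It occurred at 8 of the 45 genes (17.8%), against 22.1% of protein-coding genes. Of the 27 genes with a Snail peak over the window 4 held it (14.8%), against 19.9% of all such genes. Of the 18 others 4 did (22.2%), namely Sema3d, Sema4f, Sema6d and Epha1, against 24.4%. The genes with both are shown because motif and Snail peak coincide there, and Efna3 because both factors had a peak over its window. Each sequence is the 250 bases before a start, 5′ to 3′, from the RefSeq promoter table of GRCm38.p6, the assembly of mm10. All 5 lie on the minus strand, and capitals mark the E-box.
Sema4c, chr1:36558382-36558631: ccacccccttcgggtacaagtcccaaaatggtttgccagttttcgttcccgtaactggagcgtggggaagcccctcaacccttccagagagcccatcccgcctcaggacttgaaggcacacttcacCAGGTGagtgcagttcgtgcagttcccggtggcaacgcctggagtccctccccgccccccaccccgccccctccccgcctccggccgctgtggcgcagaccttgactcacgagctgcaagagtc
Efnb2, chr8:8661243-8661492: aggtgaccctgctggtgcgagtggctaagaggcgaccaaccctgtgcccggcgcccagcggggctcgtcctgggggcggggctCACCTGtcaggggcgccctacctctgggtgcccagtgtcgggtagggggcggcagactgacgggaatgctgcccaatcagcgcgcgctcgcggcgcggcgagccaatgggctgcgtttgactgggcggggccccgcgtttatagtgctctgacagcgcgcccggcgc
Efna3, chr3:89321769-89322018: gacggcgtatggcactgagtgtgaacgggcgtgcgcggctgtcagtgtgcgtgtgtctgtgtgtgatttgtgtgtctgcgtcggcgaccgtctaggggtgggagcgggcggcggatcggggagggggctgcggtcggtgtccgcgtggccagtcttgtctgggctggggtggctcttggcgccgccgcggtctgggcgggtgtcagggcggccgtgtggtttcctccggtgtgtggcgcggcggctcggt
Plxnb2, chr15:89173952-89174201: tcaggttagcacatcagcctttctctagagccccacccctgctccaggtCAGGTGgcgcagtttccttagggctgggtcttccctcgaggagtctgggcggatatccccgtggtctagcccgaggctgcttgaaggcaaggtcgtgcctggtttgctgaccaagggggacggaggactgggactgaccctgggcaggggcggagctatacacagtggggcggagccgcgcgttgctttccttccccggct
Ephb2, chr4:136836013-136836262: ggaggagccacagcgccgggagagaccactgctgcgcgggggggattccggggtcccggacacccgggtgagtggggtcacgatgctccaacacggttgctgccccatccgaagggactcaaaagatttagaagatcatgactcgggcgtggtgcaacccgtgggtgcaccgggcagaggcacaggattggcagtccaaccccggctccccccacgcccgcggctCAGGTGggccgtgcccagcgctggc

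The E-box began 124 bases before the start at Sema4c, 167 at Efnb2, 201 at Plxnb2 and 25 at Ephb2, and the Snail peak spanned the whole printed stretch at these 4 genes. At Efna3 the first 105 printed bases lay in the Slug peak and the first 180 in the Snail peak. The Efna3 stretch had no CAGGTG. GC content of the 5 stretches ran between 63.6% at Plxnb2 and 72.0% at Efnb2. A match is a description of the letters and does not show that a factor sat on it.

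Class 3 semaphorins are secreted and mostly act through plexins joined to neuropilins. All 7 genes had a Snail peak and 5 a Slug peak. Sema3a (chr5:13124822-13603485), the classical repellent of growing axons, had 6 Slug peaks with scores between 55.9 and 252 and 5 Snail peaks with scores between 50.1 and 100.9. The libraries had 2 sites in common there. At 1 of them the gene's highest peaks of both factors overlapped, centred 2267 bp (Slug) and 2635 bp (Snail) downstream of the matched start, and the other lay 230 kb from the nearer gene end. Sema3d had the highest Slug score of the family, 623, at chr5:12481035-12481929, in the top 1.53% of the Slug list. A Snail peak with a score of 147 overlapped it, 98.3 kb from the nearer gene end. Sema3c had 4 Slug peaks, none above a score of 228, and 1 Snail peak, with a score of 169, whose midpoint lay 213 bp upstream of the start.

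Sema3b and Sema3f, which lie close together on chromosome 9 and are known as growth-restraining genes of a region lost in human lung cancer, had Snail peaks only. Sema3f (chr9:107681499-107710475) had 6, the highest at 547, with its midpoint 303 bp inside the high-coordinate end. Sema3b had 3, with scores of 796, 437 and 211. The first of these lay 9.94 kb outside Sema3b, within 1 kb of ends of Ifrd2 and Hyal3. Sema3e, the ligand of plexin D1, had a Snail peak scoring 321 centred 186 bp downstream of its start, and 2 Slug peaks deep in the gene with scores of 82.4 and 51.1. Sema3g had 1 peak of each factor upstream of the gene, Slug scoring 72.7 and Snail 69.1. That Slug peak lay within 1 kb of an end of Tnnc1.

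Class 4 semaphorins span the membrane and many bind B plexins. Sema4c (chr1:36548639-36560699), a ligand of plexin B2, had the highest Snail score of all 51 genes, 1626, in the top 2.12% of the list. That peak, 3327 bp wide, covered both annotated starts. A second Snail peak, scoring 872, lay within 1 kb of an end of Ankrd39. Its only Slug peak, with a score of 189, lay 9.79 kb outside the gene. Sema4d, the ligand of plexin B1, was the only gene with 3 shared Slug peaks. It had 6 Slug peaks, of which the top one scored 378, in the top 5.02% of the list, and 4 Snail peaks with scores between 52.8 and 167. One Slug peak with a score of 74.6 lay 203 bp downstream of a start and overlapped a Snail peak with a score of 131. A further 2 Slug peaks, with scores of 87.4 and 98.3, lay within 1 kb of the high-coordinate end and shared 1 Snail peak with a score of 52.8. Sema4d lies on the minus strand, so this is the upstream end of its span. Another Snail peak, with a score of 125.5, was centred 13 bp from that end. No start was matched there, so these peaks were counted as inside the gene.

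Sema4b had 3 Slug peaks with scores between 57.0 and 75.5 and 5 Snail peaks with scores between 154 and 831. Snail peaks covered both of its starts, with scores of 769 and 706, while the highest lay at the ends of Cib1 and Gdpgp1. Both of the shared sites of Sema4b lay inside the gene. Sema4f had 4 Slug peaks, 1 of them 583 bp from its low-coordinate end, and 2 Snail peaks, none above a score of 68.6 for Slug or 55.0 for Snail. Sema4g had Slug scores of 184 and 57.6 and Snail scores of 715 and 69.4. Both of its Snail peaks lay within 1 kb of an end of another gene, Mrpl43 for the first and Slf2 for the second.

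Among the other classes, Sema5a and Sema5b carry thrombospondin repeats beside the sema domain. Sema5a (chr15:32244813-32696341) had the most Slug peaks of the family, 9, with scores up to 111, and 6 Snail peaks. Its highest Snail peak, with a score of 369.65, lay at the start, 171 bp downstream, and 2 Slug peaks about 113 kb inside overlapped 1 Snail peak. Sema5b had 4 Slug peaks and no Snail peak. The highest, at chr16:35643653-35644368 with a score of 433, was in the top 3.66% of the list and 20.3 kb from the gene's end.

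Sema6 proteins span the membrane and bind A plexins. At the start of Sema6c, a Slug peak scoring 60.8 lay inside a Snail peak scoring 567, with midpoints 479 and 117 bp upstream. Sema6d had 6 Slug peaks with scores up to 121 and 3 Snail peaks with scores up to 563.5, all inside its span of 578 kb. Sema6a had Slug scores of 248.7 and 68.5 and Snail scores of 279 and 61.5, with no site in common. Sema6b had a single Snail peak with a score of 128, 725 bp upstream of its nearest start. Sema7a, a lipid-anchored ligand of plexin C1, had 5 Snail peaks and no Slug peak. The highest of them, with a score of 343, lay 23 bp from a start.

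Ephrin A genes all had peaks of both factors. Efna1, Efna3 and Efna4 are neighbours on chromosome 3, and no peak was counted for more than 1 of them. Efna1 (chr3:89271730-89280951), a main ligand of EphA2 in epithelium, had Slug scores of 61.2 and 61.0, the second 289 bp inside its low-coordinate end, 7.63 kb from the start. It had 4 Snail peaks, and the one over its starts scored 434 and was 2343 bp wide. The highest, 650, lay by Slc50a1, and a further one with a score of 220 by Dpm3.

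Efna3 had 1 Slug peak, scoring 70.0 and centred 256 bp upstream of a start, and a Snail peak scoring 56.5 overlapped it. The 2 ranked in the top 59.5% of the Slug list and the top 91.8% of the Snail list. Its other Snail peaks, with scores of 199 and 139, lay inside the gene. Efna4 had 1 Slug peak scoring 237, 904 bp upstream and within 1 kb of an end of Adam15, and a Snail peak scoring 255 over its start. Efna2 had Slug scores of 154 and 129 and Snail scores of 376 and 78.2. That higher Snail peak lay by Cirbp and Fam174c.

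Efna5 (chr17:62602957-62881317) had the most peaks of all 51 genes, 11 for Slug and 9 for Snail. Its highest Slug peak, at chr17:62737438-62737656 with a score of 836, was in the top 0.819% of the list. It overlapped the highest Snail peak of the gene, with a score of 322, at a site 135 kb from the nearer end. A Snail peak scoring 293, centred 1.06 kb upstream, reached the promoter window, and the nearest Slug peak was 51.1 kb from the start.

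Ephrin B genes are the membrane-spanning ligands, and ephrin B2 is known for its pairing with EphB4 in vessels and mammary epithelium. Efnb1 (chrX:99136061-99149022) carried a Snail peak scoring 1020.25 centred 60 bp upstream of the start, and a Slug peak scoring 55.7 beyond the far end. Efnb2 (chr8:8617235-8661242) carried a Snail peak of 1369 bp scoring 922 over its start and another scoring 60.1 inside. Its 1 Slug peak, scoring 77.0, lay inside the gene. Efnb3 had 2 Snail peaks outside the gene, with scores of 163 and 76.5, and no Slug peak. At no ephrin B gene did peaks of both factors overlap.

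A plexins are the partners of neuropilins for secreted semaphorins and of class 6 ligands. Plxna2 (chr1:194619791-194816869) was the long gene with more Snail than Slug peaks, 5 for Slug and 9 for Snail. Its Slug scores ran between 60.8 and 475, and its Snail scores between 51.4 and 494. The highest Snail peak lay at the start, 150 bp downstream, and a Slug peak with a score of 67.5 lay 818 bp downstream without touching it. The highest Slug peak lay 67.0 kb from the nearer end and overlapped a Snail peak scoring 68.5, and a second site inside the gene was also shared. Plxna4 had 6 Slug peaks with scores up to 167 and 4 Snail peaks with scores up to 105, and no shared site. Plxna1 had Slug scores of 134 and 106 and Snail scores of 211, 119.4 and 50.1, and its second Slug peak overlapped its first Snail peak.

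The B plexins bind class 4 semaphorins. They and Plxna3 had Snail peaks only. Plxnb2 (chr15:89155546-89182018), the B plexin best known from epithelia, had 5 Snail peaks and no Slug peak. The highest, with a score of 1279.82 in the top 5.59% of the list, lay 68 bp upstream of 1 of its starts. The window with the E-box printed above belongs to the other start, where the Snail peak scored 89.0. Plxnb1 had 1 Snail peak, 2686 bp wide and scoring 975.3, over its start. Plxna3 had 2, one scoring 503 at its start and one scoring 961 by Lage3. Plxnb3 had a single Snail peak with a score of 151, 1.92 kb outside the gene, and this peak overlapped the promoter window of Srpk3.

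The remaining plexins have a single gene each. Plxnd1, the receptor of Sema3e, had 1 Snail peak, scoring 85.4, over its start and no Slug peak. Plxnc1, the receptor of Sema7a, had the highest Slug score of all 51 genes, 842, at chr10:94872125-94872316, in the top 0.812% of the Slug list. That peak lay 72.8 kb inside the gene and overlapped the gene's only Snail peak, with a score of 318. Its other Slug peaks scored 74.4 and 58.6. At both Plxnc1 and Efna5 the highest peaks of the 2 libraries thus lay at the same narrow site away from any start. The highest peaks also overlapped away from a start at Sema3d and Epha3, in wider Slug peaks of 895 and 966 bp. At Sema3a they overlapped too, centred 2267 bp (Slug) and 2635 bp (Snail) downstream of the matched start. Plxnc1 and Epha3 had 1 Snail peak each, so the highest was the only one.

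At the Eph receptors of the A type Slug peaks outnumbered Snail peaks, 30 against 13 over 9 genes with a median length of 148 kb. Epha3, Epha5, Epha6 and Epha7, long genes known mainly from the developing nervous system, had 7, 7, 6 and 3 Slug peaks and 1 Snail peak each. Epha5 (chr5:84054761-84417818) had the highest Slug score of the family, 669.8, at chr5:84247303-84247550, in the top 1.295% of the list and 170 kb from the start. Its Snail peak, with a score of 168, lay at the start, 154 bp upstream, within 1 kb of an end of Gm42163. Epha3 had a Slug peak with a score of 433 inside the gene, which overlapped its single Snail peak with a score of 67.3.

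Epha7 had a Slug peak scoring 413, 25.2 kb downstream of the start, and its Snail peak scored 794 and was centred 114 bp upstream of it. Epha6 had Slug scores between 53.0 and 306. Its only Snail peak, with the highest Snail score of the family at 1168, lay outside the gene by Arl6, whose promoter window it overlapped. Epha4 had 5 Slug peaks with scores between 51.1 and 115 and 3 Snail peaks with scores of 329, 100.5 and 63.8. The highest Snail peak covered the start, and the lowest, 1302 bp inside, overlapped a Slug peak with a score of 73.6.

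EphA2 and EphA1 are the A receptors typical of epithelia, and both genes are short. Epha2 (chr4:141301221-141329384) had 1 Slug peak with a score of 58.2, 2.10 kb downstream of the start. It had 3 Snail peaks with scores of 1098, 182 and 71.8, and the highest lay at the start, 100 bp downstream, in the top 8.70% of the list. Epha1 had a Slug peak with a score of 163 upstream and Snail scores of 720 and 223, the higher by Zyx, the gene of the focal adhesion protein zyxin. Epha8 had 1 Snail peak scoring 68.85 outside the gene. Epha10, which lacks an active kinase, had no peak.

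Eph receptors of the B type bind ephrin B ligands and are shorter genes except for Ephb1 and Ephb2. Over the 5 genes there were 14 Slug and 15 Snail peaks. Ephb4 (chr5:137350109-137374522), the receptor of ephrin B2, had Slug scores of 441 and 51.2 outside the gene, the higher 6.65 kb beyond its far end and in the top 3.51% of the list. Its highest Snail peak, with a score of 1054, lay at the start, 24 bp upstream. Ephb3 (chr16:21204620-21223309) carried a Snail peak scoring 1065, 99 bp upstream of the start, another scoring 656 inside, and 1 Slug peak scoring 52.1 outside.

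Ephb2 had 7 peaks of each factor, the most Snail peaks of its family. Its Slug scores ran between 50.7 and 125 and its Snail scores between 52.7 and 239. The highest Snail peak lay over the start, no Slug peak was nearer to it than 12.5 kb, and 1 site inside the gene was shared. Ephb6, whose kinase is inactive, had Snail scores of 915, 152 and 103. Its single Slug peak, with a score of 65.6 at 972 bp downstream of the start, overlapped the last of these. Ephb1 had 3 Slug peaks, with scores of 134, 80.1 and 53.9, all at least 49.5 kb inside the gene, and no Snail peak.

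**Figure D4:**
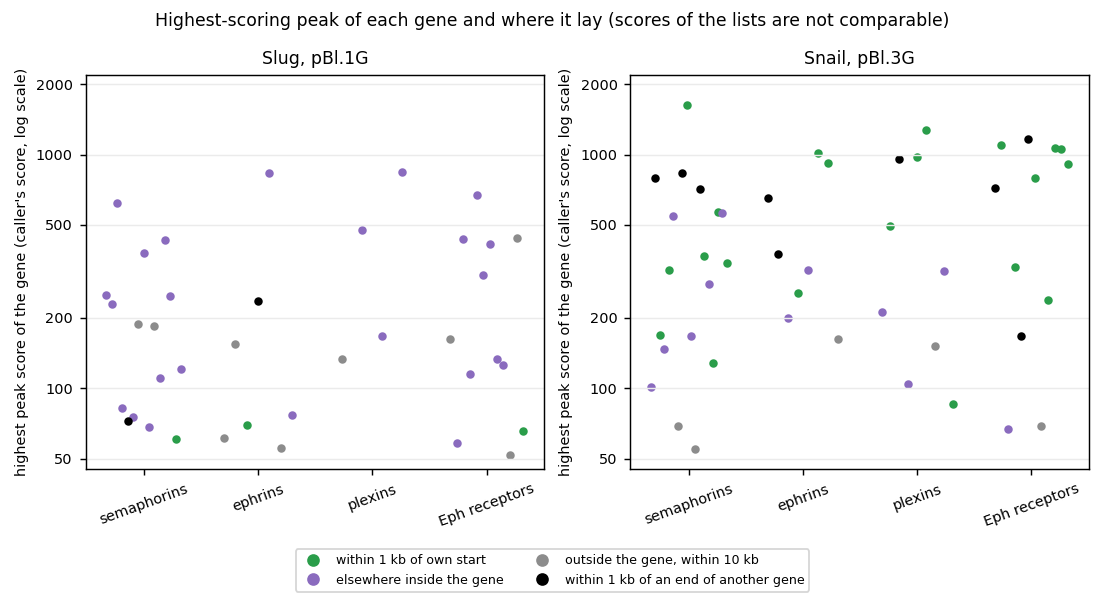
Score of the highest peak of each gene with a peak (log scale, the authors' caller score) for Slug in pBl.1G (left) and Snail in pBl.3G (right), by family. Colours give its place, black taking precedence: within 1 kb of an end of another gene (2 Slug, 9 Snail genes), within 1 kb of a start, elsewhere inside, or outside the gene. Starts were matched for 45 genes, so a point of the others cannot be green. All but 1 of the Snail points above 1000 are green, while the highest Slug points are purple.

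Among genes with a matched start, the highest Slug peak lay within 1 kb of a start at 4 of 35 (11.4%), against 10.8% of all protein-coding genes with a Slug peak. The highest Snail peak did so at 22 of 41 (53.7%), against 62.5%. Within 1 kb of an end of another protein-coding gene lay the highest Slug peak of 2 of 38 genes (5.26%), against 9.52%, and the highest Snail peak of 9 of 47 (19.1%), against 32.9%. Of all the members' peaks, 2 Slug peaks (1.52%) and 16 Snail peaks (12.1%) did so. Epha5, Epha6 and Sema4g had no other Snail peak, and Efna4 and Sema3g no other Slug peak. In the top 5% of their lists were 9 of the 132 Slug peaks (6.82%) and 1 of the 132 Snail peaks (0.758%), the one at the starts of Sema4c.

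Peaks of both factors coincided at 15 of the 51 genes. The share of all protein-coding genes with such a site was not computed, so this count has no background beside it. Of the 132 Slug peaks 21 (15.9%, 10.6 to 23.1) overlapped a Snail peak by at least 1 bp, against 14.7% of all Slug peaks in windows of protein-coding genes. Of the 132 Snail peaks 19 (14.4%, 9.41 to 21.4) overlapped a Slug peak, against 15.2%. The genes were Sema3a, Sema3d, Sema4b, Sema4d, Sema5a, Sema6c, Efna3, Efna5, Plxna1, Plxna2, Plxnc1, Epha3, Epha4, Ephb2 and Ephb6. Both shares were thus close to those of protein-coding genes at large.

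Partner genes that are no members were counted in the same way. Slug peaks were found at 13 and Snail peaks at 11 of 14 co-receptors and cleaving enzymes, or 92.9% and 78.6%, against 56.2% and 66.7% of all protein-coding genes. Erbb2, the receptor kinase that associates with B plexins, had the highest Slug score of these, 683, followed by the protease gene Mmp14 at 503. Erbb2 had a Snail score of 1288, below the 1401 of Adam10, a protease that cleaves ephrins. Kdr, Timd2 and L1cam had Slug peaks alone and Itgb1 Snail peaks alone. Slug peaks were found at 32 and Snail peaks at 37 of 39 intracellular effectors, or 82.1% and 94.9%. The highest Snail scores were those of Nck1, an adaptor of Eph signalling, at 1582, and Rhoa, the GTPase downstream of both systems, at 1577. The highest Slug scores were those of Grb7, which lies next to Erbb2 and had the same top score, and of Dpysl3, a collapsin response mediator, at 488. These genes had median lengths of 46.1 kb for the co-receptors and enzymes and 108 kb for the effectors, longer than the 17.2 kb of all protein-coding genes. Of all genes of 20 to 50 kb, the class of the first median, 62.5% had Slug peaks and 76.4% had Snail peaks. Of all genes of 50 to 150 kb, the class of the second, 81.9% had Slug peaks and 80.9% had Snail peaks.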

How the data were processed

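The 2 deposited files are peak lists of single ChIP libraries, and their unit is the score that the authors' peak caller gave each peak. Per the submitters' processing notes, Bowtie and MACS 1.4.2 were used with mm10. Their settings, the control and the scale of the score are not stated there. Read depth is unknown, so no peak height or interval on it is given. The 2 input samples were not used here.

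Calculations used Python 3.11.15, numpy 2.4.6, pandas 2.3.3, scipy 1.17.1 and matplotlib 3.10.9. Peak starts were made 1-based. Genes and promoter windows (300 bases) came from RefSeq tables of GRCm38.p6, matched by symbol. A peak belonged to a gene when its midpoint lay in the gene or within 10 kb of an end, and peaks were shared at an overlap of at least 1 bp. Length classes had limits of 20, 50 and 150 kb. The overlap and window steps were checked on artificial peaks. With 1 library per factor no test across replicates was made. All 51 genes are named; values go to those with the highest scores, the most peaks, shared sites, Slug peaks at gene ends or peaks of 1 factor. Values of further genes were added after they were seen. The genes, lists and this rule were chosen with earlier results of these data known. Alternatives varied the window, the score limit, the assignment of peaks and the definition of shared.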

Additional observations from a re-analysis of the deposited data

How the results depend on the processing

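Counts of genes with a peak depend on the window and on the score limit, so they describe these settings. Under the alternatives, genes with a peak were counted among the members only, not among all protein-coding genes. Whether the members' shares still exceeded those of all protein-coding genes there was not tested. With overlap in place of midpoints all 6 counts of genes by factor were the same. Within 10 kb of a gene end, with the deeper gene body left out, 24 genes had a Slug peak, 23 both, 1 Slug alone, 20 Snail alone and 7 neither, and 9 receptors had a Slug peak. Counting peaks within 1 kb of an end left 7 genes for Slug, 25 for Snail, 6 for both, 1 Slug alone, 19 Snail alone and 25 neither. Of these, 6 ligands and 1 receptor had a Slug peak, and 13 ligands and 12 receptors a Snail peak. Leaving out scores under 100, 23 genes had both, 19 Snail alone and 6 neither, and 13 ligands had a Slug peak. With the top 10000 peaks of each list, 20 genes had a Slug and 28 a Snail peak, 10 both, 10 Slug alone, 18 Snail alone and 13 neither. A flank of 25 kb left 0 genes with neither. With each peak given to 1 gene, 4 genes had Slug alone and 4 neither. Without peaks at an end of another gene, an alternative chosen after seeing the data, 5 genes had Slug alone. The Snail density relative to all protein-coding genes, 0.981, was 0.812 over gene spans only and 1.25 without Sema3a, Sema6d and Epha6, the 3 longest. Shared Slug peaks came to 3.03% with reciprocal overlap of 50%, 10.4% without scores under 100 and 9.85% with midpoints within 200 bp. Shared Snail peaks came to 3.03% and 6.49% under the first and second of these. A Slug peak over a promoter window was found at 0 genes when scores under 100 were left out, and at 6 when midpoints within 1 kb of a start were counted, both chosen after seeing the data. The cause of these shifts was not tested. No paired analysis was possible because each factor had 1 library.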

Other observations

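Other axon guidance families, the netrins, Slits and repulsive guidance molecules with their receptors, were long genes with a median length of 149 kb. Slug peaks were found at 17 and Snail peaks at 14 of these 21 genes (81.0% and 66.7%), in the gene or within 10 kb, against 56.2% and 66.7% of all protein-coding genes and 81.9% and 80.9% of those of 50 to 150 kb. The median lies close to the 150 kb limit, and of all genes over 150 kb 96.9% had Slug and 74.9% Snail peaks. There were 105 Slug and 27 Snail peaks in all. Robo1, a Slit receptor, had 21 Slug peaks, the highest with a score of 603, and no Snail peak. Its relative Robo2 had 23 Slug and 2 Snail peaks, and the ligand gene Slit3 13 Slug peaks, with scores up to 417, and 1 Snail peak. Unc5d had 8 Slug peaks and Ntng1 7, again with no Snail peak, and Ntng2 and Unc5a had Slug peaks alone as well. Unc5b, a netrin receptor, had 1 Slug and 6 Snail peaks, the highest Snail score of this list being 1823, followed by Neo1 at 1196. Ntn3 and Ntn4 had Snail peaks alone, and Robo3 and Robo4 no peak of either factor.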
